A study of Mus musculus with 4 samples.

Results

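The hematopoietic cytokine receptors are the surface proteins through which myeloid progenitors receive their growth factors. The 9 genes, named in a list, were taken from the deposited expression table by NCBI gene number, which made them 9 of 27179 genes. They were Kit, Flt3, Csf1r, Csf2ra, Csf2rb, Csf2rb2, Csf3r, Il3ra and Il6ra. All 9 were above the level needed for testing, a mean of at least 0.5 FPKM, and were therefore among the 13230 genes tested. FPKM counts the fragments of a gene scaled by its length and by the mapped reads of the library, so that genes of different length can be compared within a library.

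The 4 libraries were made from leukemia cells of C57BL/6 mice with MLL-AF9-driven acute myeloid leukemia (AML), taken from bone marrow and labelled with an age of 6 weeks. In this model a retrovirus (MSCV-MLL-AF9-IRES-YFP) brings the MLL-AF9 fusion into lineage-negative fetal liver cells, which are then transplanted into lethally irradiated recipients. Between infections the cells were cultured with SCF, IL-3 and IL-6, which are ligands of receptors described here. Leukemia-initiating cells (LICs), for which the study uses the Mac-1+/c-Kit+ phenotype, were sorted, and 2 libraries were labelled wild type (WT) and 2 knockout for CD274 (CD274-null). MLL-AF9 was common to both groups, and the libraries were compared by their CD274 label. The labels give neither the number of animals behind a library nor the round of transplantation, and p-values here measure only the spread between these libraries.

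Kit, Flt3 and Csf1r are receptor tyrosine kinases, which dimerize on their ligand (stem cell factor, Flt3 ligand, or M-CSF and IL-34) and phosphorylate themselves. The receptors of GM-CSF, IL-3, G-CSF and IL-6 have no kinase of their own and use JAK kinases bound to their tails, which activate STAT factors. GM-CSF and IL-3 each bind a chain of their own, encoded by Csf2ra and Il3ra, which pairs with a signaling chain, the beta common chain of Csf2rb. The mouse has a close copy of that gene, Csf2rb2, whose product serves IL-3 alone. The kinase receptors mark stem, progenitor and monocytic cells, whereas Csf3r drives the neutrophil lineage.

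Facts of the whole series bear on every value below. Cd274, the gene named in the labels, was measured at 2.80 and 0.945 FPKM in the libraries labelled WT and at 1.43 and 2.29 FPKM in those labelled CD274-null, so its level did not separate the labels, and the groups are named here by their labels. The relative depth was 1, 0.880, 0.764 and 0.861 in WT replicates 1 and 2 and CD274-null replicates 1 and 2, and the order WT 1, WT 2, CD274-null 1, CD274-null 2 is used for each set of 4 values. The markers of the sorted phenotype were present, with Itgam, which encodes the Mac-1 alpha chain, at 140, 174, 100.2 and 164 FPKM. Markers of mature neutrophils differed widely among the libraries, the 10 genes of the list summing to 42129, 8443, 17615 and 30600 FPKM. Most of each sum came from S100a8, S100a9, Ngp and Camp. Other lineage genes also differed among the libraries. Jchain, which encodes the immunoglobulin J chain of plasma cells, was at 0.370, 0.514, 12.3 and 10.5 FPKM, with a log2 fold change of 3.65 ± 0.33 (adjusted p 0.0369, limma, and 0.0299 to 0.517 over all alternatives), while 5 of the 7 plasma cell markers were below the mean of 0.5 FPKM. Prg2, an eosinophil granule gene, was at 19.6, 395, 41.0 and 236 FPKM, high in both libraries numbered 2. Siglecf, another eosinophil marker, followed it at 18.2, 51.7, 19.7 and 36.8 FPKM. Epx (0.771, 0.730, 0.924 and 2.76 FPKM) and Ear2 (0.966, 3.15, 2.84 and 1.54 FPKM) did not, and Il5ra and Ccr3 were too low to be tested. Hba-a1, an alpha globin, was at 0.928, 18.1, 0.809 and 0 FPKM. Of 10 T or NK cell markers and 10 B cell markers, 1 each reached the mean of 0.5 FPKM. The B cell marker, Cd79b, was at 12.8, 36.2, 35.6 and 37.4 FPKM, low in WT replicate 1 like Kit. The part of such cells in the receptor levels was not tested.

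Csf2rb and Csf2rb2 lie side by side on chromosome 15 and are so alike that reads may be divided between them. In transcripts of the GENCODE M21 annotation (GRCm38), their coding sequences were 2691 and 2637 bases long and 95.2% identical over 2631 aligned bases, with 126 differences and a longest identical run of 242 bases (coding bases 2083 to 2324 of Csf2rb). Reads averaged 50 bases in length, and 26.0% of the 50-base windows of the Csf2rb coding sequence occurred unchanged in Csf2rb2. An identical stretch of 60 bases nearer the start of the coding sequence and its neighbour, the least alike stretch of 60, show what a read can and cannot tell apart. Both stretches are coding sequence, in exon 5 of Csf2rb (chr15:78338834-78338893 and chr15:78338893-78338952, plus strand) and in exon 4 of Csf2rb2 (chr15:78294438-78294497 and chr15:78294379-78294438, minus strand). Capitals mark the 13 bases that differ.
Csf2rb and Csf2rb2, most alike: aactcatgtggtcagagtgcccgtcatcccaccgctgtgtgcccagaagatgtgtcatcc
Csf2rb, least alike: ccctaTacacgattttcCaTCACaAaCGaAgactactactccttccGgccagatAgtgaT
Csf2rb2, least alike: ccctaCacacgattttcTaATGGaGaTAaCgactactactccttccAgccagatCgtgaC
A read from the first stretch fits both genes equally, whereas one from the second differs at several positions. How reads that fit several places were counted is not given in the sources used here, so the levels of Csf2rb and Csf2rb2 are uncertain relative to each other, and their sum is given below as well.

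**Figure D1:**
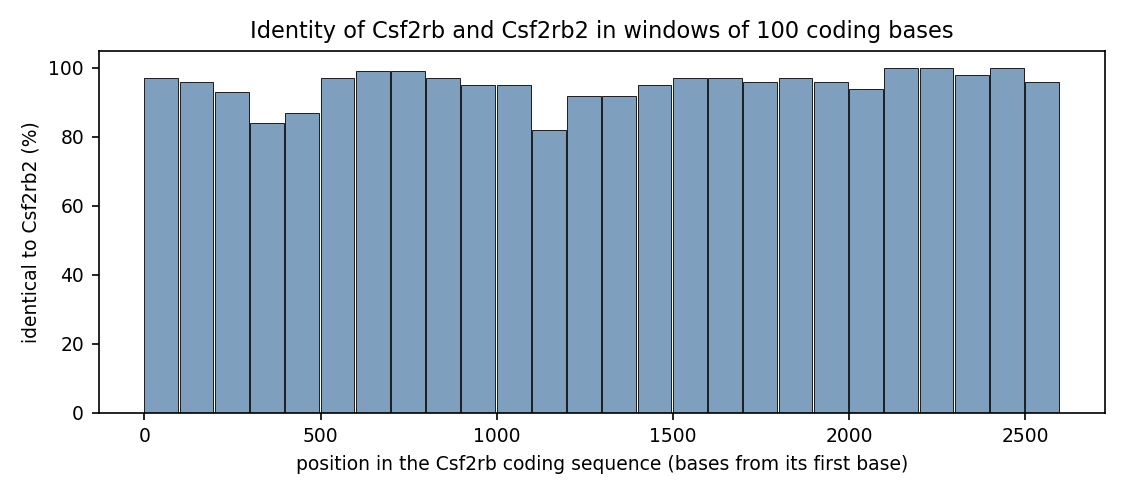
Percent of Csf2rb bases identical in Csf2rb2 (vertical axis) in windows of 100 bases along the Csf2rb coding sequence (horizontal axis, bases from its first base). Bases without an aligned partner count as not identical. Identity fell to 82.0% in the least alike window and reached 100% in windows toward the end.

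Of the other receptors, Kit, Flt3, Csf2ra and Il3ra shared 0% of the 50-base windows of their longest coding transcript with another gene. Csf1r shared 17.7% with 1 gene, Hmgxb3, and Il6ra shared 2.25% with 1 gene. Csf3r shared 11.5%, spread over 402 genes. By the same measure, Csf2rb shared 18.4% with 13 genes and Csf2rb2 19.5% with 26, each count including the other copy. The levels of Csf1r, Csf3r, Csf2rb and Csf2rb2, and the sum of the last 2, may therefore hold reads of other genes.

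The promoters of Kit, Flt3 and Csf2rb2 are shown because Kit and Flt3 were lowest and Csf2rb2 was highest in WT replicate 1, as described below. Csf2ra and Il3ra were also lowest there, but their windows lie partly or wholly inside the annotated gene and are not printed. Each is the 250 bases before the start in RefSeq GRCm38.p6, at chr5:75574737-75574986 (plus strand) for Kit, chr5:147400490-147400739 (minus strand) for Flt3 and chr15:78305722-78305971 (minus strand) for Csf2rb2. Capitals mark the letters GAGGAAG, the core bound by PU.1, on either strand.
Kit promoter: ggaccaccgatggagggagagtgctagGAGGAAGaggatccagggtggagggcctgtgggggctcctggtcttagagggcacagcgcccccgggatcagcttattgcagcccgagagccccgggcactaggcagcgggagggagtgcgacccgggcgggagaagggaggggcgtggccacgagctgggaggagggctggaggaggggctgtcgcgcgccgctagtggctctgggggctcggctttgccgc
Flt3 promoter: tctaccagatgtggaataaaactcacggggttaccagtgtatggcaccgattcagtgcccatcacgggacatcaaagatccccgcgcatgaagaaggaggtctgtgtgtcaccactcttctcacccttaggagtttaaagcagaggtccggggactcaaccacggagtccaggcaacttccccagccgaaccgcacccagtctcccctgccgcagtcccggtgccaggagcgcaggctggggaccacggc
Csf2rb2 promoter: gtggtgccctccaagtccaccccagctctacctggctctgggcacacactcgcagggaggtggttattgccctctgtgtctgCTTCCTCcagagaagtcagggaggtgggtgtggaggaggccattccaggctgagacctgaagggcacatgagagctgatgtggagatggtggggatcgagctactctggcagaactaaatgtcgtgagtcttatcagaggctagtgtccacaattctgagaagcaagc
The table of promoters held 7 of the 9 receptors. GAGGAAG was found in 4 of these 7 (Kit, Csf2rb2, Csf2ra and Csf3r) and in 10.6% of 32851 promoters of the same length. TTGCNNAA, letters bound by C/EBP factors, occurred in Il3ra, against 9.56% of all promoters. AGATAA, letters bound by GATA factors, occurred in Il6ra, against 9.99%. In Csf2ra, Csf3r and Il3ra the start used lies within the annotated span of the gene, so that the window is not wholly upstream of it. A match is a description of letters and not evidence of binding.

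The GM-CSF receptor alpha chain was by far the most abundant of the receptors. Averaged over the 4 libraries, Csf2ra stood at 289 ± 67.2 FPKM (SD, n = 4). Csf2rb followed at 83.3 ± 47.9, Csf3r at 59.5 ± 21.1, Il3ra at 58.5 ± 13.7, Csf1r at 34.9 ± 11.2, Il6ra at 22.5 ± 10.6, Kit at 15.1 ± 5.84, Csf2rb2 at 15.02 ± 5.58 and Flt3 at 8.28 ± 4.94 FPKM. The lowest library of Csf2ra lay above the highest of Csf2rb, whereas the ranges of all 7 other pairs of neighbours overlapped. Within each library, Il3ra lay above Csf1r, Csf1r above Il6ra and Csf2rb2 above Flt3 in all 4. Csf2ra was the highest and Flt3 the lowest of the 9 in each of the 4 libraries. The places between them changed, with Csf2rb next to Csf2ra in WT replicate 1 and CD274-null replicate 1, Il3ra in WT replicate 2 and Csf3r in CD274-null replicate 2. In WT replicate 2, Il3ra and Csf2rb were nearly equal, both at 69.0 FPKM. Among all tested genes of a library, Csf2ra ranked at the 98.1st to 98.8th percentile, whereas Flt3 ranged from the 21.3rd to the 51.1st.

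**Figure D2:**
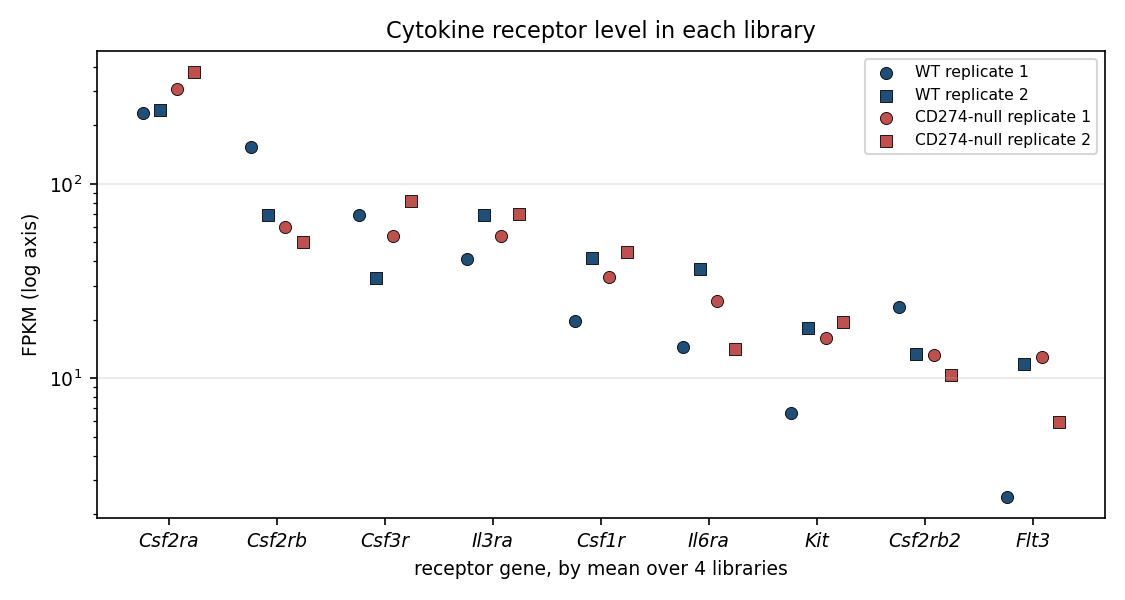
FPKM on a log axis (vertical) of each receptor gene (horizontal, ordered by mean), with 1 point per library, blue for WT and red for CD274-null. Csf2ra lies above every other receptor, at 233 to 377 FPKM, and the points of most genes from the 2 labelled groups are intermixed.

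No receptor was a candidate gene, which needed both a fold change beyond 1.5 and an unadjusted p below 0.01 (limma, two-sided). Such calls were made for 480 of 13230 genes, 3.63% (2.39% with the higher level in CD274-null and 1.24% with the lower), so that 0 of 9 is near the background. None of the 9 had an unadjusted p under 0.05, against 13.7% of all genes, and their adjusted p-values (limma) ranged from 0.373 to 0.832, where 0.0756% of all genes had one under 0.05. Of the receptors, 6 had a higher and 3 a lower mean in the libraries labelled CD274-null, where 51.1% of all genes had a higher one. Their median log2 fold change was 0.42, beside 0.01 over all tested genes. Both values rested on WT replicate 1, without which 2 of 9 receptors had the higher mean in CD274-null and the median was -0.17. Without CD274-null replicate 2 the median was 0.18, with 7 of 9 higher. The groups did not overlap for 3 of 9 receptors, against 47.3% of all genes. These were Csf2ra (both CD274-null libraries higher, 25.6% of all genes) and Csf2rb and Csf2rb2 (both lower, 21.8%). A p that misses the threshold does not show that levels were alike, and the 95% intervals given below show what differences remain possible. Fewer cells of a type and less RNA per cell cannot be told apart in these bulk samples.

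**Figure D3:**
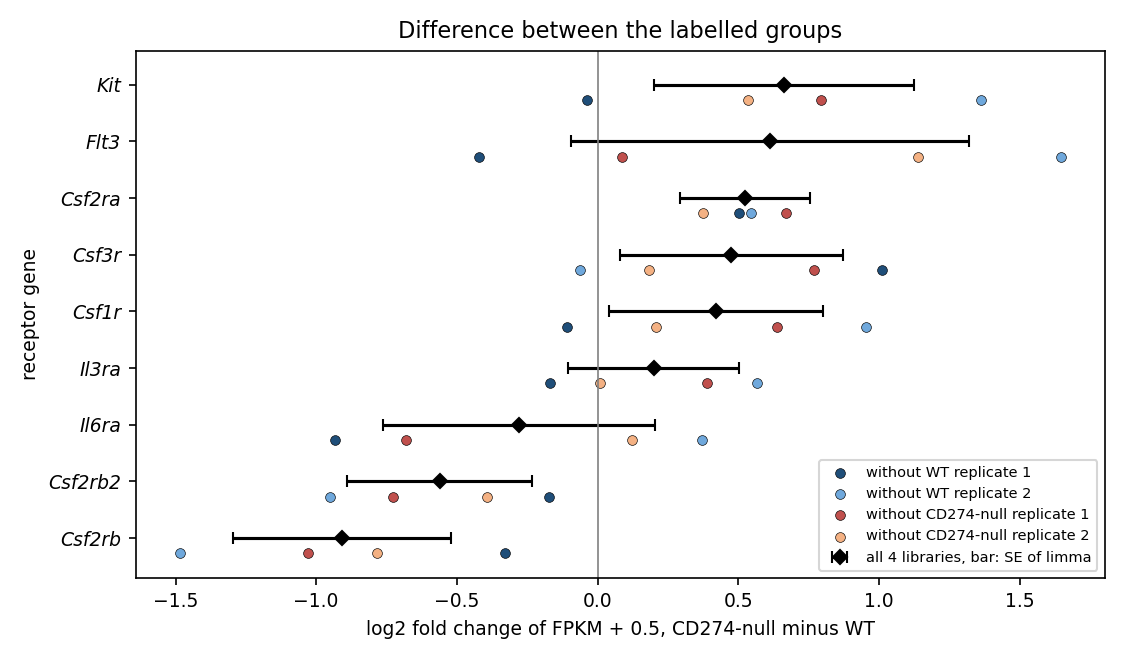
Log2 fold change of FPKM + 0.5, CD274-null minus WT (horizontal axis), for each receptor (vertical axis). Diamonds with bars are the fit of all 4 libraries with its SE and small points are the fits with 1 library left out. Without WT replicate 1, the values of Kit, Flt3, Csf1r and Il3ra moved to the other side of 0.

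Among the receptor tyrosine kinases, WT replicate 1 was the lowest library throughout. Kit (gene 16590, chr5:75574987-75656722), the sorting marker itself, was at 6.59, 18.2, 16.2 and 19.5 FPKM, from at least 395, 961, 741 and 1004 reads. WT replicate 1 lay well below the other libraries, and the remaining 3 lay close together. The log2 fold change, CD274-null minus WT, was 0.66 ± 0.46 (SE), with a 95% interval of -0.46 to 1.78 and an adjusted p of 0.551 (limma). Without WT replicate 1 it was -0.037, and without WT replicate 2 it was 1.36 with an unadjusted p of 0.0048, past the candidate thresholds, and an adjusted p of 0.168. Where cells were sorted on c-Kit protein, transcript level and gate cannot be told apart; the labels of these libraries state the sort without naming its markers.

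Flt3 (14255, chr5:147330741-147400489), the receptor of Flt3 ligand and a frequent site of mutation in human AML, was at 2.46, 11.9, 12.8 and 5.93 FPKM. It was low in WT replicate 1 and, among the others, lower in CD274-null replicate 2, and it had the widest range of the 9, 5.22-fold between its extremes. CD274-null minus WT was 0.61 ± 0.71 on the log2 scale, with an interval of -1.10 to 2.33 (adjusted p 0.729, limma). It was -0.42 without WT replicate 1 and 1.65 without WT replicate 2.

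Csf1r (12978, chr18:61105572-61131139), the M-CSF receptor of the monocytic lineage, was at 19.7, 41.7, 33.2 and 44.9 FPKM. WT replicate 1 was again lowest, and CD274-null replicate 1 lay below WT replicate 2, so the groups overlapped. Between groups the log2 fold change was 0.42 ± 0.38, with an interval of -0.50 to 1.34 (adjusted p 0.645, limma), and it was -0.11 without WT replicate 1. The sum over the 3 kinases was 28.8, 71.8, 62.2 and 70.3 FPKM (exact permutation test, p = 1).

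Other markers of the lineages in which these receptors are used were compared in the same libraries. The 11 monocyte or macrophage markers other than Csf1r summed to 239, 283, 263 and 381 FPKM, lowest in WT replicate 1 and highest in CD274-null replicate 2, like Csf1r. The genes of the list did not all follow that order, and 2 of the 11 tested of its 12 were candidates in opposite directions, where 3.63% of all genes were candidates. Cd68, a lysosomal protein of phagocytes, was at 51.5, 58.1, 86.9 and 113 FPKM (log2 fold change 0.85, adjusted p 0.274, limma), whereas Vcam1, an adhesion molecule, was at 117, 92.3, 53.7 and 59.8 FPKM (-0.87, adjusted p 0.272, limma). C1qa, a marker of mature macrophages, was at 1.76, 0.272, 1.99 and 0.835 FPKM. Of the other C1q genes, C1qb was at 3.91, 2.13, 2.56 and 1.13 FPKM and C1qc at 1.48, 0.559, 2.25 and 0.667 FPKM. The log2 fold changes were 0.46 for C1qa, -0.61 for C1qb and 0.31 for C1qc. The 9 mast cell or basophil markers other than Kit summed to 41.8, 50.1, 79.0 and 109.7 FPKM, with Fcer1a, Tpsab1, Tpsb2 and Cma1 at 0 in all libraries. The 11 dendritic cell markers other than Flt3 summed to 38.8, 42.0, 50.6 and 77.1 FPKM, most of it Bst2. Of the 4 dendritic cell markers tested, 1 was a candidate, Tcf4, a factor of plasmacytoid cells, at 1.74, 2.72, 7.40 and 23.6 FPKM (2.36, adjusted p 0.266, limma), and Siglech, another marker of these cells, was at 0, 0, 0.142 and 0.126 FPKM. The calls of Cd68, Vcam1 and Tcf4 were lost under 7, 4 and 3 of 12 alternatives, and that of Cd68 with any library left out (0.66 to 1.04). Left-out libraries that ended the call of Vcam1 were WT replicate 1 (-0.70), CD274-null replicate 1 (-0.79) and CD274-null replicate 2 (-0.95), and for Tcf4 they were WT replicate 1 (2.10), WT replicate 2 (2.62) and CD274-null replicate 2 (1.56). The part of these cells in the receptor levels was not tested.

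None of the chains of the GM-CSF and IL-3 receptors passed the test, although the groups did not overlap for Csf2ra, Csf2rb and Csf2rb2. Csf2ra (12982, chr19:61217191-61228461), the ligand-binding chain of the GM-CSF receptor, was at 233, 240.2, 307 and 377 FPKM, from at least 4523 reads. Both CD274-null libraries lay above both WT libraries, which were nearly equal. The log2 fold change was 0.52 ± 0.23, with an interval of -0.04 to 1.08 (unadjusted p 0.0621, adjusted p 0.385, limma). It stayed between 0.38 and 0.67 with each library left out and was 0.34 after the GC correction (unadjusted p 0.153), and Csf2ra was the only receptor whose difference between groups exceeded that between the WT libraries.

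Csf2rb (12983, chr15:78325800-78351001), the shared signaling chain, was at 154, 69.0, 59.7 and 50.2 FPKM. WT replicate 1 was far above each other library, and WT replicate 2 lay only slightly above the CD274-null libraries. The log2 fold change was -0.91 ± 0.39, with an interval of -1.84 to 0.03 (unadjusted p 0.0555, adjusted p 0.373, limma). Without WT replicate 1 it was -0.33, and without WT replicate 2 it was -1.49 with an unadjusted p of 0.0014, past the candidate thresholds, and an adjusted p of 0.128.

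Csf2rb2 (12984, chr15:78282507-78305721), the chain used by IL-3 alone, was at 23.1, 13.3, 13.2 and 10.4 FPKM. As for Csf2rb, WT replicate 1 stood above the other 3, and WT replicate 2 and CD274-null replicate 1 were nearly equal. Its log2 fold change was -0.56 ± 0.33, with an interval of -1.36 to 0.24 (adjusted p 0.491, limma), and it was -0.17 without WT replicate 1 and -0.95 without WT replicate 2 (unadjusted p 0.021).

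Il3ra (16188, chr14:14345912-14355493), the ligand-binding chain of the IL-3 receptor, was at 41.3, 69.0, 53.7 and 70.1 FPKM. Like the kinases it was lowest in WT replicate 1, and the groups overlapped. A log2 fold change of 0.20 ± 0.30 was found, with an interval of -0.54 to 0.94 (adjusted p 0.808, limma). It was -0.17 without WT replicate 1 and -0.012 after a correction for GC content.

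The sum of the beta chains depends less on how reads were divided between the copies than the share and ratios that follow, though it too would change if reads that fit both were dropped or counted more than once. The 2 beta chains summed to 177, 82.3, 72.9 and 60.7 FPKM, and Csf2rb2 made up 13.1%, 16.2%, 18.2% and 17.2% of the sum. Csf2rb stood at 0.662, 0.287, 0.194 and 0.133 of the level of Csf2ra. For each of these 3 quantities the groups did not overlap, and the exact two-sided permutation test gave p = 0.333, the smallest value that 2 libraries against 2 can give. Csf2rb2 stood at 0.561, 0.193, 0.247 and 0.149 of the level of Il3ra, where the groups overlapped (exact permutation test, p = 0.667). Csf2ra alone made up 41.3%, 45.1%, 53.4% and 55.9% of the summed FPKM of the 9 receptors (exact permutation test, p = 0.333).

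**Figure D4:**
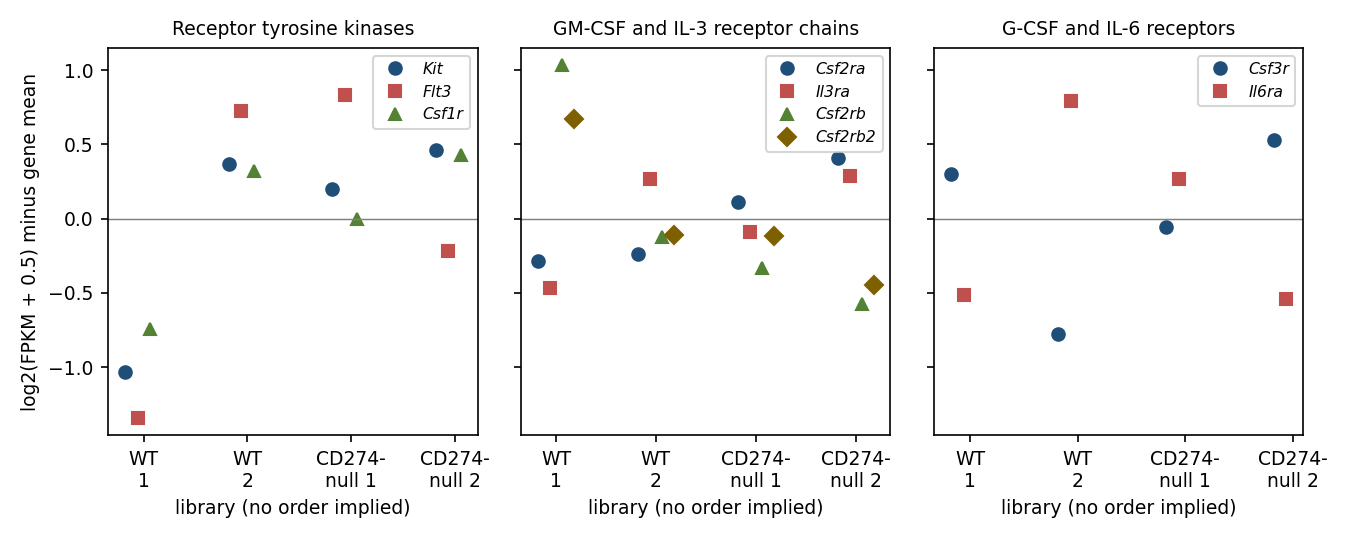
Log2(FPKM + 0.5) of each receptor minus its own mean over 4 libraries (vertical axis), by library (horizontal axis), for the receptor tyrosine kinases, the GM-CSF and IL-3 receptor chains, and the G-CSF and IL-6 receptors. WT replicate 1 is lowest for Kit, Flt3, Csf1r, Csf2ra and Il3ra and highest for Csf2rb and Csf2rb2.

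Csf3r and Il6ra differed in which libraries were high. Csf3r (12986, chr4:126023441-126044975), the G-CSF receptor of the neutrophil lineage, was at 69.4, 32.7, 54.2 and 81.6 FPKM. WT replicate 2 was lowest and CD274-null replicate 2 highest, with the remaining libraries of the groups between them. The log2 fold change was 0.48 ± 0.40, with an interval of -0.49 to 1.44 (adjusted p 0.620, limma), and it was -0.061 without WT replicate 2. Summed neutrophil markers were also lowest in WT replicate 2, at 8443 FPKM, although highest in WT replicate 1, at 42129. Of the 10 genes, 7 were highest in WT replicate 1. Camp, a granule peptide, was at 5330, 964, 2793 and 5918 FPKM and Ltf, lactoferrin, at 109, 7.74, 117 and 216 FPKM, both highest in CD274-null replicate 2, like Csf3r. The part of neutrophilic cells in the level of Csf3r was not tested.

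Il6ra (16194, chr3:89869324-89913196), the ligand-binding chain of the IL-6 receptor, was at 14.4, 36.4, 25.1 and 14.1 FPKM. WT replicate 1 and CD274-null replicate 2 were nearly equal and lowest. The log2 fold change was -0.28 ± 0.48, with an interval of -1.45 to 0.89 (adjusted p 0.832, limma), and it was 0.37 without WT replicate 2 and 0.12 without CD274-null replicate 2. Il6st, which encodes gp130, the signaling partner of Il6ra, was at 3.61, 2.58, 2.76 and 2.21 FPKM, so that Il6ra stood at 3.99, 14.1, 9.09 and 6.39 times its level (exact permutation test, p = 1). Csf3r stood at 3.52, 0.786, 1.63 and 1.82 times the level of Csf1r, a span within WT that covered both CD274-null libraries (exact permutation test, p = 1).

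For most of the receptors the spread over the libraries was wide, and wider between the WT than between the CD274-null libraries for 8 of 9, all but Csf2ra, against 57.2% of all genes. Their log2(FPKM + 0.5) ranged over a median of 1.31 across the 4 libraries, from 0.69 to 2.17, beside 0.75 over all tested genes. A range of at least 1 was seen for 7 of 9 receptors and for 32.7% of all genes. The absolute log2 difference between WT replicates 1 and 2 had a median of 1.07 for the receptors and 0.34 for all genes. Between the CD274-null replicates the medians were 0.38 and 0.28. For 8 of 9 receptors the difference between the WT libraries was larger than that between the group means, which held for 52.8% of all genes. WT replicate 1 was the highest or lowest library for 7 of 9 receptors and for 55.8% of all genes, and CD274-null replicate 2 for 8 of 9 and 56.3%.

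Genes with the nearest profiles were sought for the 7 receptors with a range of at least 1, as the Euclidean distance between profiles of log2(FPKM + 0.5) centred on their mean over the 4 libraries. Itm2c lay nearest to Kit, at a distance of 0.049, followed by Pml and Cbx8. Plxnd1 lay nearest to Csf1r (0.064) and Arap2 to Csf3r (0.104). Asap1 lay nearest to Csf2rb (0.069) and Il1rn, the IL-1 receptor antagonist, to Csf2rb2 (0.050). Flt3 and Il6ra had no neighbour as close, the nearest being Otos (0.356) and Gm9920 (0.140), both low in level. With 4 libraries and 13230 genes, close profiles are easily found.

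The ligands of these receptors were mostly at or near 0 in the sorted cells. Only Flt3l and Csf1 of 9 ligand genes reached the mean of 0.5 FPKM. Kitl was at most at 0.041 FPKM, Csf2 at 0.285, Csf3 at 0.332 and Il6 at 0.092, and Il3, Il5 and Il34 were listed at 0 in all libraries. Flt3l, the ligand of Flt3, was at 9.17, 7.86, 14.1 and 16.9 FPKM. Both CD274-null libraries lay above both WT libraries, with a log2 fold change of 0.83 ± 0.25 (unadjusted p 0.016, adjusted p 0.299, limma), which stayed between 0.70 and 0.95 with each library left out. Csf1, the M-CSF gene, was at 3.40, 1.31, 2.07 and 4.66 FPKM, where the groups overlapped (log2 fold change 0.45, adjusted p 0.733, limma).

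Among 26 receptor-proximal signaling genes, which carry the signal inside the cell and were all tested, 1 was a candidate, near the 3.63% of all genes. It was Stat3, the factor downstream of the G-CSF and IL-6 receptors. Stat3 was at 112, 85.2, 56.0 and 45.4 FPKM, with both CD274-null libraries below both WT libraries and a log2 fold change of -0.95 ± 0.24 (unadjusted p 0.0068, adjusted p 0.272, limma). The call was lost without WT replicate 1 (-0.75), CD274-null replicate 1 (-1.10) or CD274-null replicate 2 (-0.80), and, at an unchanged fold change, without the trend (unadjusted p 0.0178) or without moderation of the variance (unadjusted p 0.0615). Jak2, the kinase bound to the beta common chain, was at 15.7, 24.1, 12.9 and 15.7 FPKM, with overlapping groups (log2 fold change -0.44, adjusted p 0.530, limma). Stat5a and Stat5b, its usual STAT partners, had log2 fold changes of -0.16 (adjusted p 0.855) and -0.31 (adjusted p 0.619). With 1 library left out, Jak2 ranged from -0.74 (without WT replicate 1, unadjusted p 0.0419) to -0.14 (without WT replicate 2) and Stat5b from -0.54 to -0.083 with the same libraries.

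Among 24 negative regulators, 22 were tested and 1 was a candidate, again near the 3.63% of all genes. It was Cbl, a ubiquitin ligase that sends activated Kit, Flt3 and Csf1r for degradation. Cbl was at 31.2, 32.8, 12.4 and 9.60 FPKM, so that the libraries of each group lay close together and far from the other group. Its log2 fold change was -1.51 ± 0.24 (adjusted p 0.165, limma), and the call was lost without CD274-null replicate 2, at -1.33, and without moderation of the variance (unadjusted p 0.0143). Cish, a STAT5 target, was at 5.0, 0.682, 2.04 and 2.23 FPKM, with overlapping groups (log2 fold change 0.05, adjusted p 0.983), a value that turned negative under 4 alternatives and with either of 2 libraries left out (-1.06 without WT replicate 2 and -0.00496 without CD274-null replicate 2). Socs2, another STAT5 target, was at most at 0.146 FPKM and was not tested.

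Of 15 cytokine response genes, all tested, 2 were candidates, where 3.63% of all genes were and 1.24% with the lower level in CD274-null. They were Ccnd1 and Ccnd2, which encode D-type cyclins of the G1 phase. Ccnd2 was at 4.78, 4.82, 1.45 and 0.661 FPKM, with a log2 fold change of -1.82 ± 0.39 (adjusted p 0.251, limma). Its values were close within WT, and both CD274-null libraries were lower. Ccnd1 was at 3.85, 7.79, 1.76 and 0.847 FPKM, with a log2 fold change of -1.78 ± 0.47 (adjusted p 0.274, limma). The Ccnd2 call was lost without WT replicate 1 (-1.82), WT replicate 2 (-1.81) or CD274-null replicate 2 (-1.44), and the Ccnd1 call without WT replicate 2 (-1.32), CD274-null replicate 1 (-2.16) or CD274-null replicate 2 (-1.41). Without moderation of the variance both calls were lost (unadjusted p 0.0959 for Ccnd1 and 0.0399 for Ccnd2), and that of Ccnd1 also without the filter on low values (0.0205) and with the GC correction and replicate block (0.0120). The list as a whole had a median log2 fold change of -0.44, and WT replicate 1 was the highest library for 11 of its 15 genes and for 23.9% of all genes tested. Pim1, a STAT5 and STAT3 target chosen after its values were seen, was at 283, 17.1, 56.0 and 40.6 FPKM, highest in the library in which Csf2rb was highest. Socs3, chosen in the same way, was at 27.6, 3.99, 4.76 and 1.40 FPKM. None of the 19 tested of 26 partner and other cytokine receptors, and none of the 11 tested of 12 myeloid factors that act on receptor promoters, was a candidate, with median log2 fold changes of 0.17 and 0.30. Spi1, which encodes PU.1 and was also chosen after its values were seen, was at 356, 332, 271 and 260 FPKM (log2 fold change -0.37, adjusted p 0.495, limma).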

How the data were processed

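Sorted LICs of the MLL-AF9 model were sequenced in 4 libraries (TruSeq v2, HiSeq2500). Per the labels and methods, reads were called with CASAVA 1.8.2 and aligned to GRCm38 with TopHat2 2.0.12. The table that the authors deposited holds FPKM on a linear scale, with each library in its own column. The counting program, gene lengths and strand setting are not given in the sources used here. Genes were named through RefSeq GRCm38.p6 (25275 of 27179), and 0 sample columns were left unassigned.

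Because whole reads had been counted, FPKM values of a gene stand in whole-number ratios, and reads were recovered for 17078 of 17083 genes above 0 in at least 2 libraries (99.97%), as lower bounds. They summed to 10700356, 9526395, 8150891 and 9140949 in WT replicates 1 and 2 and CD274-null replicates 1 and 2.

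Groups were compared on log2(FPKM + 0.5) with limma 3.58.1 (R 4.3.3), with trended moderation of the variance and no covariate. The 13230 genes whose mean FPKM reached 0.5 were tested, and p-values were adjusted over all of them (Benjamini-Hochberg). Fold changes are on that scale, which understates changes of low genes. Candidates had a fold change beyond 1.5 at an unadjusted p below 0.01, the cutoffs of the study. On simulated data, 96.0% of 200 genes changed by 2 on the log2 scale and 1.06% of unchanged genes were called. The simulation gave all genes the same spread between libraries and a change larger than that estimated for any receptor. The median difference between the WT libraries was 1.07 for the receptors and 0.34 for all genes. These shares therefore do not tell how many changed receptors would be called. Ratios and sums were tested by exact permutation (scipy 1.17.1). Sequences were compared with Biopython 1.88 in Python 3.11.15.

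The members and lists were chosen with earlier results of these data known. All 9 receptors and their ligands, Jak2, Stat5a, Stat5b, Socs2, Cish, Il6st, Itgam and Cd274 are named in all cases, and other listed genes, cell type markers included, where they were candidates whose groups did not overlap. Further markers and Pim1, Socs3 and Spi1 were chosen after their values were seen. Csf2rb and Csf1r had no promoter in the table used. Alternatives were the pseudocount, filter, scaling, moderation, replicate block, recovered reads (limma voom), GC correction and each library left out.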

Additional observations from a re-analysis of the deposited data

How the results depend on the processing

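Outside the fits with a library left out, 106 of 108 receptor values kept their direction and their side of the thresholds. The exceptions were Il3ra, at -0.012 with the GC correction and -0.012 with the GC correction and the replicate block. The count of receptor candidates was 0 under each of these alternatives and ranged from 0 to 2 with a library left out. With 1 library left out, 7 of 36 receptor values and several other values changed sign, and the ranges of log2 fold change were -0.037 to 1.36 for Kit, -0.42 to 1.65 for Flt3, -0.11 to 0.95 for Csf1r, -0.061 to 1.01 for Csf3r, -0.17 to 0.57 for Il3ra, -0.93 to 0.37 for Il6ra, -0.10 to 1.01 for Csf1, -0.56 to 0.25 for Stat5a, -1.06 to 1.16 for Cish, -0.64 to 0.068 for Itgam, -0.51 to 0.68 for Cd274 and -2.56 to 1.45 for Pim1. In these fits the lone library of a group is assumed to vary like the other group. Cish was at -0.019 with a pseudocount of 1, -0.041 with quantile normalization, -0.041 with the GC correction and -0.041 with the GC correction and the replicate block, and Cd274 at -0.0026 with quantile normalization. The GC correction also moved Csf2ra to 0.34, Stat5a to -0.34 and Spi1 to -0.56.

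The number of candidates over all genes was 170 without moderation of the variance, against 480, and 147 to 634 with a library left out. The lowest counts were 235 without CD274-null replicate 1 and 147 without CD274-null replicate 2. Without moderation, the calls of Stat3, Cbl, Ccnd1, Ccnd2, Cd68, Vcam1 and Tcf4 were lost. The cause was not tested. The split was 316 higher and 164 lower as deposited, 253 and 210 with quantile normalization, and 247 and 200 with equal medians. The median log2 fold change of all genes was -0.02 and -0.01 under these scalings.

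With the replicate block, 526 genes and 0 receptors were candidates, and the smallest receptor p was 0.015, for Csf2rb (adjusted p 0.276, limma). Same-numbered libraries did not deviate together over all genes, with a correlation of -0.02. That single value cannot show whether a part of the genes was paired, which was not tested. With 2 libraries a group, the exact test cannot reach 0.05. The lowest receptor value, Flt3 in WT replicate 1, rested on at least 104 reads.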
